A study of Rattus norvegicus with 6 samples.

Results

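The genes described here encode 6 liver enzymes that work beside the cytochrome P450s: the epoxide hydrolases Ephx1 and Ephx2, the flavin-containing monooxygenases Fmo1 and Fmo5, the P450 reductase Por and the aldehyde oxidase Aox1. Every probe set annotated to one of these symbols was taken, 7 in all, and each gene was read from its brightest probe set by mean signal. Por had 2 probe sets and each other gene had 1. All 6 genes were among the 14217 named on the array and among the 10372 that were bright enough to be tested. Livers came from Sprague-Dawley rat pups aged 3 weeks, at weaning. In the control group (3 arrays) the mothers ate standard chow, and in the other group (3 arrays) the mothers ate a high fat diet. The labels of all 6 pups share strain, age and tissue. They give neither litter nor sex, nor the fat content of the diet. Sample titles carry a number from 1 to 3 within each group and call every sample biological replicate 1. The number within the group is used here as the replicate number. Signals are on a log2 scale, on which a step of 1 is a doubling, and every change is high fat minus control. Whole liver was measured, so fewer cells of a type and less RNA per cell cannot be told apart.

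Microsomal epoxide hydrolase, the product of Ephx1, opens reactive epoxides that P450s make from drugs and other foreign compounds, and adds water to give diols. Soluble epoxide hydrolase, the product of Ephx2, does the same to epoxides of arachidonic acid and other fatty acids. Flavin monooxygenases put oxygen on nitrogen and sulfur atoms, and Por passes electrons from NADPH to every microsomal P450. Aldehyde oxidase is a molybdenum enzyme of the cytosol that oxidises aldehydes and nitrogen-containing rings. All are abundant in hepatocytes.

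Over all genes tested, 4 (0.0386%) passed limma's adjusted p under 0.05, and none of these was among the 6. A pair of arrays stood apart in marker transcripts, and control replicate 3 in RNA integrity. The 3' minus 5' difference of actin and GAPDH control probe sets was 3.06 log2 units in control replicate 3 and 1.92 to 2.46 in the others. High fat replicate 1 carried exocrine pancreas transcripts: the summed log2 level of 7 such genes was 15.01 there and 10.84 to 12.01 in the others. In high fat replicate 3 the brightest probe set of Xist, the transcript that coats an inactivated X, was at 4.45 against 12.46 to 13.31 elsewhere. Its other probe sets read 0.14, 1.31 and 4.03 there and 11.55 to 13.91 elsewhere. The Y-linked Eif2s3y was at 11.14 in high fat replicate 3 against at most 3.99. Another Y-linked gene, Uty, did not follow this pattern, as its brighter probe set read 10.25 there and 10.64 to 11.20 in the others. Hepatocyte markers were bright in every array, with a summed log2 level of 18.51 to 18.59. Most sit near the top of the scale, where quantile normalization brings arrays together, so they show that the tissue was liver and do not measure stability. The median change of 14 markers was -0.016, and -0.18 with arrays centred on the median instead. The 6 genes had no shared direction, as 4 were higher and 2 lower in high fat pups.

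**Figure D1:**
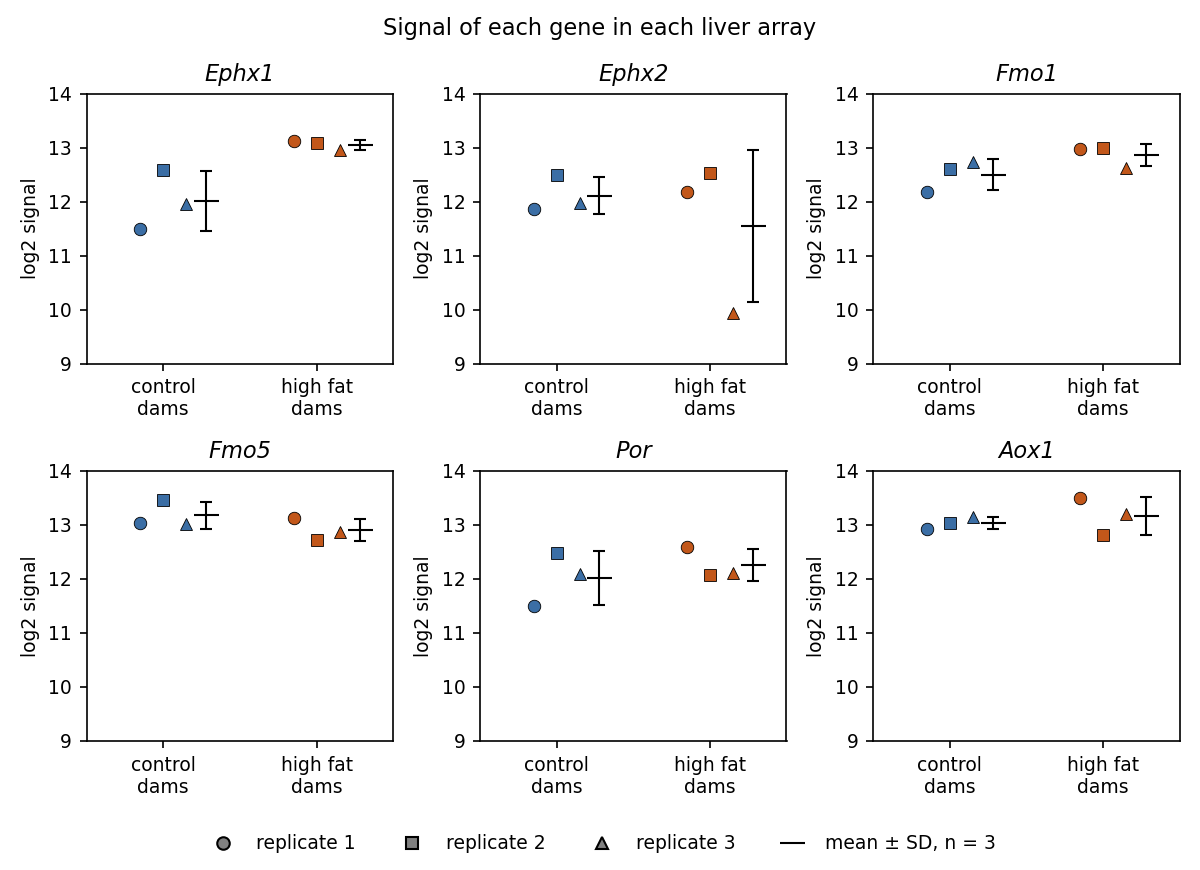
Log2 signal (y axis) of each gene in the 3 control and 3 high fat arrays, 1 panel per gene; marker shapes give the replicate number within each group and bars the mean ± SD. Only in the Ephx1 panel do all high fat arrays, at 12.95 to 13.12, lie above all controls; the low Ephx2 point at 9.94 is high fat replicate 3.

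Ephx1 had the largest difference of the 6 genes. Its log2 signal was 11.49, 12.59 and 11.95 in control replicates 1 to 3, and 13.12, 13.09 and 12.95 in high fat replicates 1 to 3. All high fat arrays lay above all controls. The spread also differed in size, with a mean of 12.01 ± 0.55 (SD, n = 3) in controls and 13.05 ± 0.090 (SD, n = 3) in high fat pups. The change was 1.04 (SE 0.27, 95% interval 0.40 to 1.69), 2.06-fold higher. It had an unadjusted p of 0.00656 and did not pass after adjustment over all genes (limma adjusted p = 0.212). An unadjusted p under 0.05 was found for 14.1% of all genes (6.56% higher and 7.51% lower) and for 1 of the 6, Ephx1. With a limit of 1.5-fold added, 6.71% of all genes were called (3.34% higher and 3.37% lower), Ephx1 again being the only one of the 6. Groups that did not overlap were found in 20.8% of all genes (9.24% with high fat higher and 11.5% lower) and in 1 of the 6. An exact permutation test gave p = 0.1 for Ephx1 (2-sided), the smallest that 3 against 3 arrays allow.

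The size of the Ephx1 difference followed the controls more than the high fat arrays. It was 0.78 without control replicate 1, the lowest array, and 1.33 without control replicate 2, the highest control (limma adjusted p = 0.184 there, within a range of 0.138 to 0.406 over all alternatives). Without high fat replicate 1, which carried the pancreas transcripts, it was 1.01, and without high fat replicate 3 it was 1.09. Of the markers of sinusoidal endothelium, all 13 tested had lower values and none passed the adjusted threshold. At an unadjusted p under 0.05 in limma, 11 of the 13 were lower, beside 7.51% of all genes. The 13 markers had a summed log2 level of 14.70 to 14.83 in controls and 13.93 to 14.28 in high fat pups. Their part in the Ephx1 result was not tested.

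RefSeq lists a pair of transcription start sites for rat Ephx1 that lie 12735 bases apart on the minus strand of chromosome 13 (build GRCr8). The promoter of each is shown because Ephx1 is the gene whose groups separate, and the promoter of Por is shown beside them because Por is the partner of the P450s that make epoxides. Each run is 300 bases, from 250 before to 50 after the start, 5′ to 3′ on the gene's strand. Capitals mark matches, on either strand, to 7 motifs: the antioxidant response element core TGACNNNGC, the AP-1 site TGACTCA, the nuclear receptor core AGGTCA, the GC box GGGCGG, the CCAAT box CCAAT, the TATA box TATAAA and the xenobiotic response core GCGTG.
Ephx1 upstream start, chr13:95275803-95276102: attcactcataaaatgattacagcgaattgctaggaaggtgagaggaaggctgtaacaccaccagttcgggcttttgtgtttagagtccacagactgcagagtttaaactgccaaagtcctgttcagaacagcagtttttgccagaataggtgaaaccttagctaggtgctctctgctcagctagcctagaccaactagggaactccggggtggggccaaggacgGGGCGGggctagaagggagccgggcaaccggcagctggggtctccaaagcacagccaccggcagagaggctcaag
Ephx1 downstream start, chr13:95263068-95263367: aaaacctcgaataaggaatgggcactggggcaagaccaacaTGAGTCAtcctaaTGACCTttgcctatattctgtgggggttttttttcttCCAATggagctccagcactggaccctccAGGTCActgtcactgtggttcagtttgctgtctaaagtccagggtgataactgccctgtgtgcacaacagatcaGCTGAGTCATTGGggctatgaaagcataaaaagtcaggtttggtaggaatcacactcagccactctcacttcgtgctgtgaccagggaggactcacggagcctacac
Por, chr12:26635760-26636059: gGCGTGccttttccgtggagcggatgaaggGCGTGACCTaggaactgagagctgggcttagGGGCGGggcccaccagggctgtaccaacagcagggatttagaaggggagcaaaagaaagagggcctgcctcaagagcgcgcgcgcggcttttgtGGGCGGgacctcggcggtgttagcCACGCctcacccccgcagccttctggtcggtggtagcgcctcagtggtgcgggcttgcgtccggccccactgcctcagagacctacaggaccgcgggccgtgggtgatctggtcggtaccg
The upstream Ephx1 window held a single match, a GC box, which 33.1% of 33469 rat promoters hold. The downstream window held 7 matches: 1 antioxidant response core, 2 AP-1 sites, 2 nuclear receptor cores and 2 CCAAT boxes. Its antioxidant response core overlaps an AP-1 site, which in turn shares a base with a CCAAT box. Of all promoters, 12.1% hold the antioxidant response core, 4.6% the AP-1 site, 16.2% the nuclear receptor core and 37.5% the CCAAT box. The Por window, 66.3% G and C, held 3 xenobiotic response cores, 2 GC boxes and 1 nuclear receptor core, one xenobiotic core overlapping the nuclear receptor core. The xenobiotic core is in 29.7% of promoters and the TATA box, found in none of these 3 windows, in 14.2%. These matches are descriptions of the letters. A single probe set reads Ephx1, and the annotation used gives no position for it, so the signal does not separate the starts.

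Ephx2 was low in a single array. Its log2 signal was 11.85, 12.49 and 11.98 in control replicates 1 to 3, and 12.18, 12.53 and 9.94 in high fat replicates 1 to 3. High fat replicate 1 lay among the controls, high fat replicate 2 just above the highest control, and high fat replicate 3 stood at -2.17 relative to the control mean. The group means were 12.11 ± 0.34 (SD, n = 3) and 11.55 ± 1.40 (SD, n = 3), a change of -0.56 (SE 0.65, 95% interval -2.09 to 0.97, limma adjusted p = 0.735). Without high fat replicate 3 the direction turned, to 0.24 (SE 0.25, limma adjusted p = 0.767). It was -1.05 without high fat replicate 2. High fat replicate 3 is also the array with low Xist and high Eif2s3y, and the labels give no sex. Whether that accompanies the low Ephx2 was not tested, since no other array has this pattern. In Ephx1, the same array was 0.94 above the control mean.

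Fmo1 was somewhat brighter in high fat pups, with groups that overlapped. Its log2 signal was 12.17, 12.60 and 12.73 in control replicates 1 to 3, and 12.97, 12.98 and 12.63 in high fat replicates 1 to 3. High fat replicate 3 lay below control replicate 3. The change was 0.36 (SE 0.19, 95% interval -0.095 to 0.82, limma adjusted p = 0.458). Fmo5, which differs from the other flavin monooxygenases by oxidising carbonyl groups, lay the other way. Its log2 signal was 13.04, 13.47 and 13.02 in controls against 13.12, 12.72 and 12.86 in high fat pups. Control replicate 2 was the highest and high fat replicate 1 lay among the controls. The change was -0.28 (SE 0.18, 95% interval -0.71 to 0.16, limma adjusted p = 0.547), and -0.13 without control replicate 2.

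In the rat gene table Fmo1 sits between Fmo4 and Fmo2 on chromosome 13, while Fmo5 lies apart on chromosome 2. Fmo4, its neighbour, had log2 signals of 8.15, 8.91 and 8.40 in controls and 9.26, 9.50 and 10.09 in high fat pups. All 3 high fat arrays lay above the controls. The change of Fmo4 was 1.13 (SE 0.28, limma adjusted p = 0.205), so it did not pass. Fmo2, the neighbour on the other side, had a change of 0.24 (SE 0.34, limma adjusted p = 0.786) and was at -0.14 without control replicate 1. The difference between these neighbours was not tested.

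Por differed among the controls by as much as a full log2 unit. The brighter probe set read 11.50, 12.48 and 12.09 in control replicates 1 to 3, and 12.59, 12.07 and 12.10 in high fat replicates 1 to 3. The groups overlapped, with control replicate 1 lowest of all. The change was 0.23 (SE 0.28, 95% interval -0.43 to 0.89, limma adjusted p = 0.745). Leaving out control replicate 1 gave -0.031, control replicate 2 gave 0.46 and high fat replicate 1 gave 0.063. The dimmer probe set read 8.21, 9.16 and 8.18 in controls and 8.94, 8.98 and 8.69 in high fat pups. Control replicate 2 was the highest array there, and the highest control on the brighter probe set. Its change was 0.35 (SE 0.28, limma adjusted p = 0.648 over 18625 probe sets), in the same direction as the brighter one.

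Por shares its work with cytochrome b5, which was read in a list of microsomal and mitochondrial electron carriers. Not all carriers of this list work with Por. Of its 9 genes tested, 4 were higher and 5 lower. Their median was -0.031 against -0.021 over all genes, and no gene among them passed the adjusted threshold. Cytochrome b5 itself, Cyb5a, was at -0.031 (SE 0.12; chosen after its value was seen). Fdx1, the ferredoxin that serves mitochondrial P450s, was at 0.50 (SE 0.15, limma adjusted p = 0.255), and the outer mitochondrial form of cytochrome b5, Cyb5b, was at -0.74 (SE 0.26, limma adjusted p = 0.293). Cyb5r4 was at -0.28 (SE 0.19), ranging from -0.44 (without control replicate 3) to -0.18 (without high fat replicate 2). The list's median turned to 0.074 without control replicate 3 and to 0.043 with RNA integrity as a covariate. Cyb5b was at -0.44 with a covariate for RNA integrity.

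Enzymes that draw on Por outside drug metabolism include sterol enzymes and heme oxygenases. Of 5 tested, 4 were lower, with a median of -1.72, and no difference from Por was tested. Squalene epoxidase, Sqle, read 10.83, 9.89 and 12.24 in controls and 6.88, 6.48 and 7.60 in high fat pups. Its groups did not overlap, and its change was -4.0 (SE 0.59, limma adjusted p = 0.129). The lanosterol demethylase Cyp51 was at -2.16 (SE 0.54, limma adjusted p = 0.207) and Dhcr7, the last enzyme of cholesterol synthesis, at -1.72 (SE 0.37, limma adjusted p = 0.185). The heme oxygenases were at -0.28 (Hmox1, SE 0.64) and 0.31 (Hmox2, SE 0.21), named to complete the 5. The median was -1.30 without control replicate 3 and -1.26 with a covariate for RNA integrity. None of the 5 passed the adjusted threshold.

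Aox1 was the steadiest of the 6 genes between groups. Its log2 signal was 12.92, 13.04 and 13.15 in control replicates 1 to 3, and 13.51, 12.80 and 13.20 in high fat replicates 1 to 3. The high fat arrays spread to both sides of the controls. The change was 0.13 (SE 0.20, 95% interval -0.34 to 0.60, limma adjusted p = 0.800). Leaving out high fat replicate 1 turned it to -0.033, and leaving out high fat replicate 2 gave 0.32. Of 8 other genes of molybdenum enzymes and their cofactor, 3 were higher and 5 lower. Their median was -0.068, and no gene among them passed the adjusted threshold. Xanthine dehydrogenase, Xdh, the closest relative of Aox1 among them, read 12.97, 12.48 and 12.39 in controls and 11.84, 12.04 and 11.96 in high fat pups. All high fat arrays were lower, by -0.67 (SE 0.18, limma adjusted p = 0.228). Sulfite oxidase, Suox, was at -0.19 (SE 0.16), from -0.32 without control replicate 1 to -0.084 without control replicate 2. Mtarc2, a reducing molybdenum enzyme, was at 0.17 (SE 0.14), or 0.099 without high fat replicate 3. The list's median was -0.028 without high fat replicate 1.

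**Figure D2:**
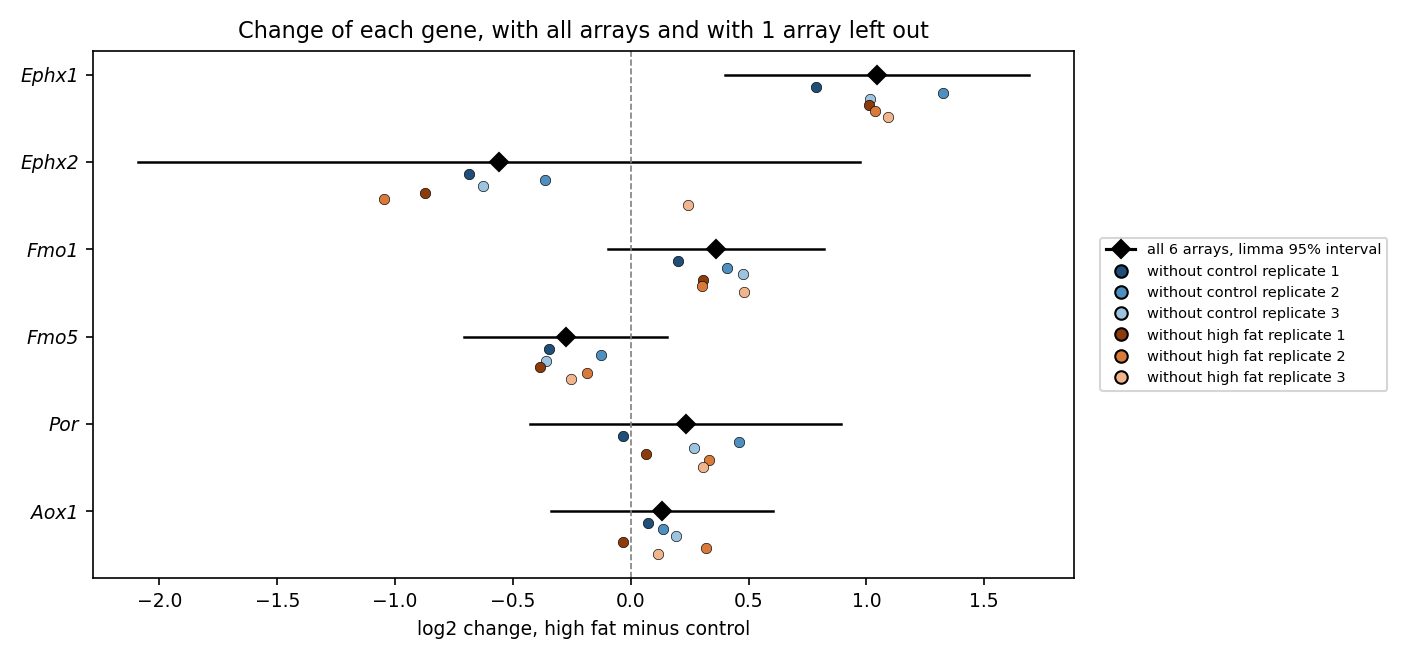
Log2 change, high fat minus control (x axis), of each gene (y axis); black diamonds and lines are the limma estimate and 95% interval over all 6 arrays, and circles the estimate with 1 array left out. Ephx1 stayed between 0.78 and 1.33, while Ephx2, Por and Aox1 had values on both sides of 0, Ephx2 only without high fat replicate 3.

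Since Ephx1 and Por were both low in control replicate 1 and high in control replicate 2, the genes were also compared within each array. The log2 ratio of each pair was taken per array and set relative to the control mean of that ratio, for all 15 pairs; this comparison was chosen after the values were seen. Ephx1 over Por was 0.0050, 0.12 and -0.13 in control replicates 1 to 3, and 0.54, 1.03 and 0.86 in high fat replicates 1 to 3. The control spread of this ratio was 0.12 (SD, n = 3), against 0.55 for Ephx1 alone. In high fat arrays the ratio spread more, at 0.25 (SD, n = 3) against 0.090 for Ephx1 alone. The narrower control spread follows from the pattern that prompted the comparison. Ephx1 differed by 0.81 more than Por. The same ratio against Fmo5 was 1.32, against Fmo1 0.68, against Aox1 0.91 and against Ephx2 1.60. In the last of these high fat replicate 3 was at 3.11, against 0.66 and 1.04 in the other high fat arrays. All 5 ratios with Ephx1 had high fat arrays above all controls. Fmo1 over Fmo5 (0.64) and Fmo5 over Por (-0.51) also had groups that did not overlap, which makes 7 of 15 pairs. The 5 ratios with Ephx1 share its values, whose groups were already separate, so they are not independent results, and no share over ratios of other genes was computed. Each of these 7 had an exact permutation p of 0.1 (2-sided, the smallest possible), or 0.214 adjusted over the 15 pairs.

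**Figure D3:**
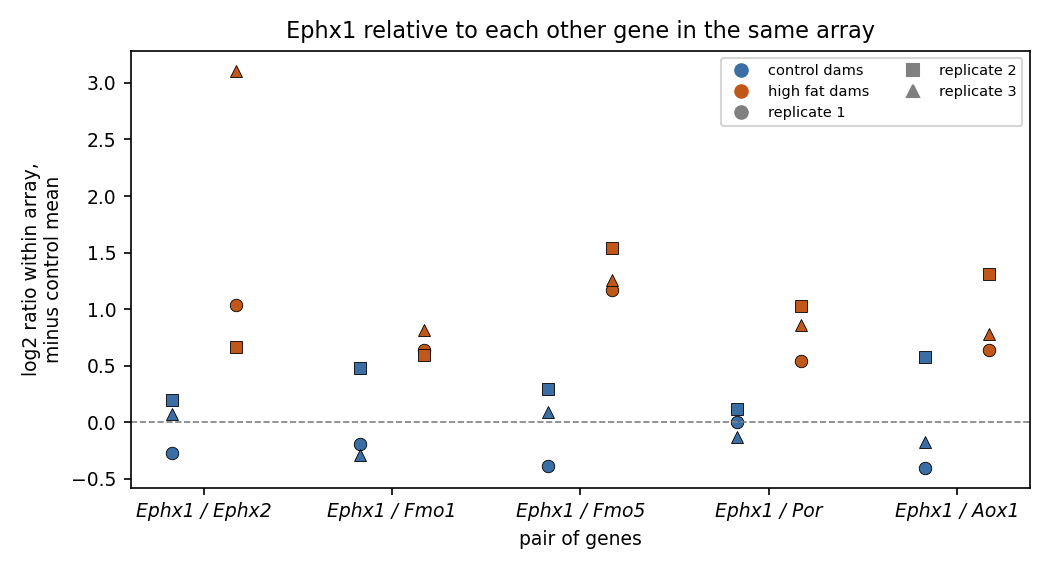
Log2 ratio of Ephx1 to each other gene in the same array, minus the control mean of that ratio (y axis), for 5 pairs (x axis); blue points are control and orange points high fat arrays, with shapes for the replicate number. High fat arrays lie above the controls in each pair, at 0.54 to 1.03 for Ephx1 over Por.

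The profiles of the 6 genes were compared with all others by the root mean square difference over the 6 arrays, each profile centred on its own mean. The genes nearest to Ephx1 were Manba, a lysosomal mannosidase, at 0.074 log2 units, N4bp2l1 at 0.092 and Omd at 0.12, against a median of 0.66 over all genes. They were picked for this likeness, so their group difference is no separate result. Nearest to Ephx2 were Inafm1 at 0.14, Bdh2, a short-chain dehydrogenase, at 0.33 and Fam110c at 0.34, against a median of 0.91. Each was lowest in high fat replicate 3, at 4.06, 6.61 and 4.99, which follows from picking them for likeness to Ephx2. The Inafm1 and Fam110c values there lie under the brightness limit of 5.83. The other 5 arrays ranged from 6.26 to 6.74 for Inafm1, 7.78 to 8.72 for Bdh2 and 6.51 to 7.17 for Fam110c. Fmo1 lay nearest to Pus1 (0.051), Svil (0.067) and Wdr12 (0.073), and Fmo5 to Tmem177 (0.057), Atpaf1 (0.059) and Timm17a (0.071). Por lay nearest to Trpv6 (0.077), Fbxo31 (0.086) and Abhd15 (0.11), and Aox1 to Kif7 (0.047), Anxa11 (0.067) and Tmem209 (0.072). Among the 6 themselves, Fmo1 and Por were closest, at 0.25, and Ephx1 and Ephx2 farthest apart, at 1.11.

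**Figure D4:**
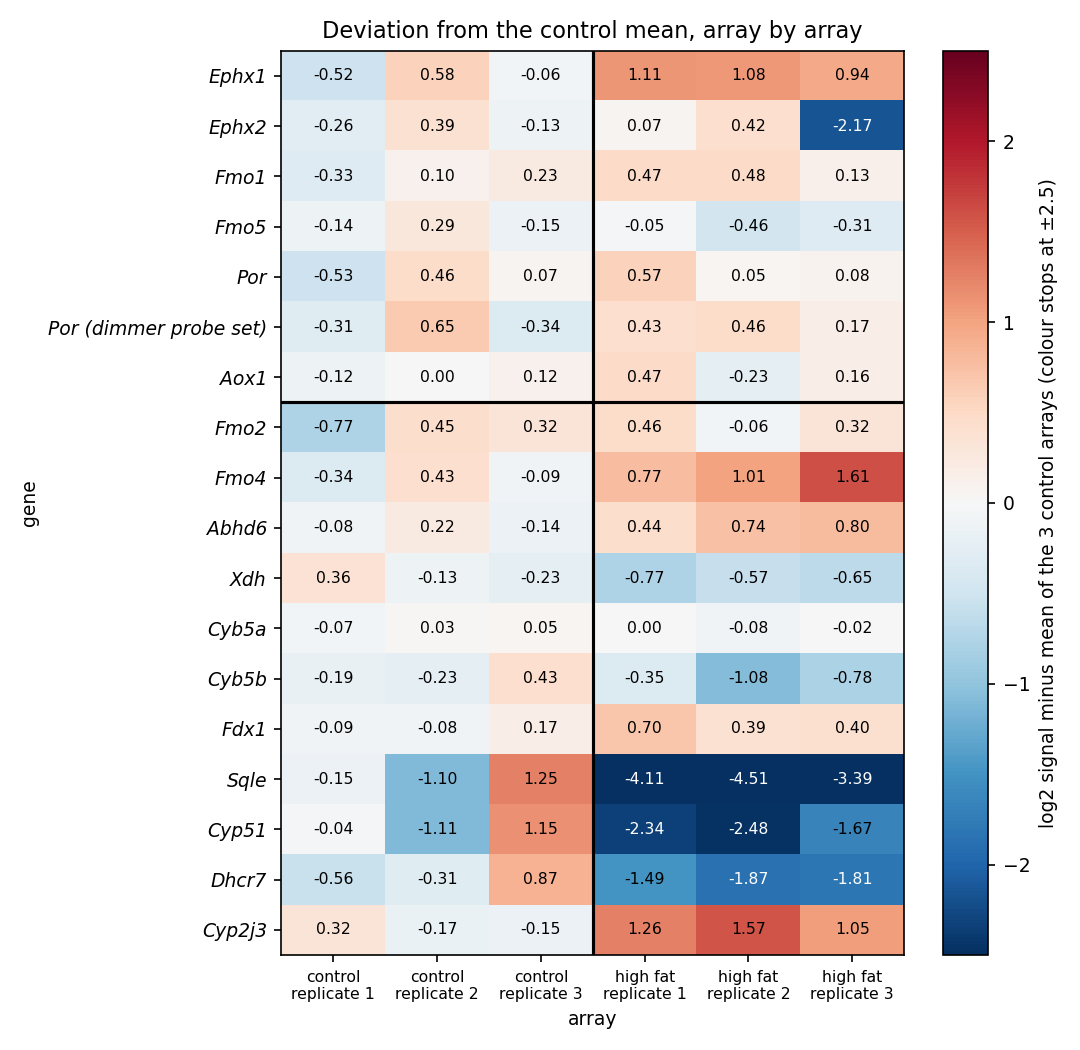
Log2 signal minus the mean of the 3 control arrays (colour and printed value) for the 7 probe sets of the 6 genes (above the line) and 11 related genes (below it), with 1 column per array. Ephx1 is at 1.11, 1.08 and 0.94 in the high fat columns, and Ephx2 at -2.17 in high fat replicate 3 alone.

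Enzymes that make the substrates of the epoxide hydrolases were read beside them. All 10 tested P450s of the subfamilies that form epoxides of arachidonic acid were higher in high fat pups, where 46.9% of all genes were higher. Their median was 0.71, and 3 were higher at an unadjusted p under 0.05, as were 6.56% of all genes. Cyp2j3 read 10.62, 10.13 and 10.16 in controls and 11.56, 11.87 and 11.35 in high fat pups, a change of 1.29 (SE 0.20, limma adjusted p = 0.136). Cyp2c12 was at 1.34 (SE 0.52, limma adjusted p = 0.329) and Cyp2c13 at 1.97 (SE 0.80, limma adjusted p = 0.344), though genes of this subfamily are alike in sequence and may share signal. The groups of Cyp2c13 overlapped, with control replicate 2 at 7.45 and high fat replicate 1 at 6.71. Its control replicate 1 read 5.41, under the brightness limit of 5.83. None of the 10 passed the adjusted threshold. Without control replicate 3 the median was 0.42 and Cyp2c12 was at 0.72, and with the lowest 60% of probe sets left out the median was 0.34. Fitting RNA integrity as a covariate gave 0.35 for the median and 0.71 for Cyp2c12. P450s that form epoxides from foreign compounds were split, 4 higher and 4 lower, with a median of 0.033 that turned to -0.029 without control replicate 2 and to -0.11 with arrays centred on the median. Cyp1a1 was at -2.33 (SE 0.74, limma adjusted p = 0.272), or -1.38 without high fat replicate 2, with Cyp1a2 at -0.31 (-0.13 without high fat replicate 2). Cyp2b3 was at 0.29, ranging from 0.15 (without control replicate 3) to 0.47 (without control replicate 1), and at 0.10 with RNA integrity as a covariate.

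Of 4 other hydrolases, relatives of the epoxide hydrolases by fold or by substrate, 2 were higher and 2 lower. The monoacylglycerol hydrolase Abhd6 read 10.50, 10.80 and 10.44 in controls and 11.02, 11.32 and 11.38 in high fat pups, so that the groups did not overlap. Its change was 0.66 (SE 0.16, limma adjusted p = 0.206). Leukotriene A4 hydrolase, Lta4h, an unrelated enzyme that also acts on an epoxide, was at -0.17 (SE 0.12), and Mest was at -0.25 (SE 0.48), turning to 0.11 without high fat replicate 1. The median of the 4 was -0.073, or 0.086 without high fat replicate 1 and 0.024 without the brightness filter.

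Receptors and transcription factors that control enzymes of this kind went both ways. Of 17 tested, 10 were higher and 7 lower, with a median of 0.083, or -0.059 without high fat replicate 2. Ppara, the fatty acid receptor that is known to induce Ephx2 in rodents, was at 1.29 (SE 0.19, limma adjusted p = 0.129), with Nr3c1 at 0.55 (0.27 with RNA integrity as a covariate). Foxa2 was at -0.41, or -0.19 without high fat replicate 3. Nr1i3 (CAR) and Nr1i2 (PXR), drug sensors that induce Ephx1 and Por, were at 0.39 (SE 0.46) and 0.27 (SE 0.37), and Nfe2l2 (NRF2) at -0.12 (SE 0.17). These 3 factors were chosen after their values were seen. Among 14 other targets of CAR and PXR, 8 were higher and 6 lower, with a median of 0.043, or -0.074 without control replicate 1 and -0.067 with arrays centred on the median. Gsta3 was at 0.75, Slco1a4 at 0.61 and Ugt2b1 at -0.40. Among 22 targets of NRF2, 13 were higher and 9 lower, with a median of 0.20, or 0.30 without control replicate 3 and 0.36 with RNA integrity as a covariate. At an unadjusted p under 0.05, 7 were higher and 3 lower, beside 6.56% higher and 7.51% lower over all genes. The 7 include Slc7a11, which read 4.43, 5.56 and 4.87 in controls, all under the brightness limit of 5.83. It was bright enough to be tested only through the high fat arrays, at 6.16, 7.58 and 6.49. Me1 was at 0.90, Gclm at 0.79 and Slc7a11 at 1.79, whereas Nqo1, often read as the leading NRF2 target, was at -1.16 (SE 0.43, limma adjusted p = 0.309; chosen after its value was seen). Among 23 targets of PPAR alpha, 22 were higher, with a median of 0.68, where 46.9% of all genes were higher. At an unadjusted p under 0.05, 12 were higher, beside 6.56% of all genes. Retsat, a retinol saturase, rose by 1.67 (SE 0.14, limma adjusted p = 0.0255) but did not pass with any single array left out, without the brightness filter, or with the replicate block or the covariate for RNA integrity. Pdk4 was at 2.08 and Ehhadh at 1.52. No other gene of these lists passed.

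Neighbouring steps showed small medians. Heme synthesis, which supplies the P450s, had 4 of 7 genes higher and a median of 0.023, which turned to -0.058 without control replicate 3 and to -0.040 with RNA integrity as a covariate. Urod was at -0.28 (-0.17 without high fat replicate 2). Uros was at 0.19 (0.084 without control replicate 1, 0.054 with the mean of all probe sets). Alad was at 0.16, where leaving out high fat replicate 3 gave 0.065 and leaving out high fat replicate 2 gave 0.30. Phase II transferases, which act on the products of these enzymes, had 14 of 27 genes higher and a median of 0.0056, which turned to -0.062 without control replicate 1 and to -0.038 with arrays centred on the median. Gstm2 was at -1.12, Tpmt at -0.71 and Nat1 at -0.51 (-0.27 with the mean of all probe sets). Ephx1 and Por are richest around the central vein in rodent liver. Genes of that zone were lower in 9 of 13, with a median of -0.31, or -0.20 without control replicate 1 and -0.10 with the lowest 60% of probe sets left out. Oat was at -1.39, Nkd1 at -0.81 and Slc1a2 at -0.75 (-0.19 with the mean of all probe sets). The 4 higher genes of this zone include Glul at 0.051 and Cyp2e1 at 0.067, chosen after their values were seen. Genes of the periportal zone were lower in 8 of 14, with a median of -0.15, or -0.23 without control replicate 1 and -0.33 with arrays centred on the median. Hal was at -1.73, Cdh1 at -0.82 and Ass1 at -0.63. The 6 higher periportal genes include Pck1 at 0.27 and Pigr at 0.43, also chosen after their values were seen. At an unadjusted p under 0.05 in limma, 3 of 27 phase II genes were higher and 6 lower, beside 6.56% higher and 7.51% lower over all genes. Of the 13 genes around the central vein 4 were lower and 0 higher at that limit, and of the 14 periportal genes 5 and 0. No gene of heme synthesis was called there. None of the genes in these 4 lists passed the adjusted threshold.

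**Figure D5:**
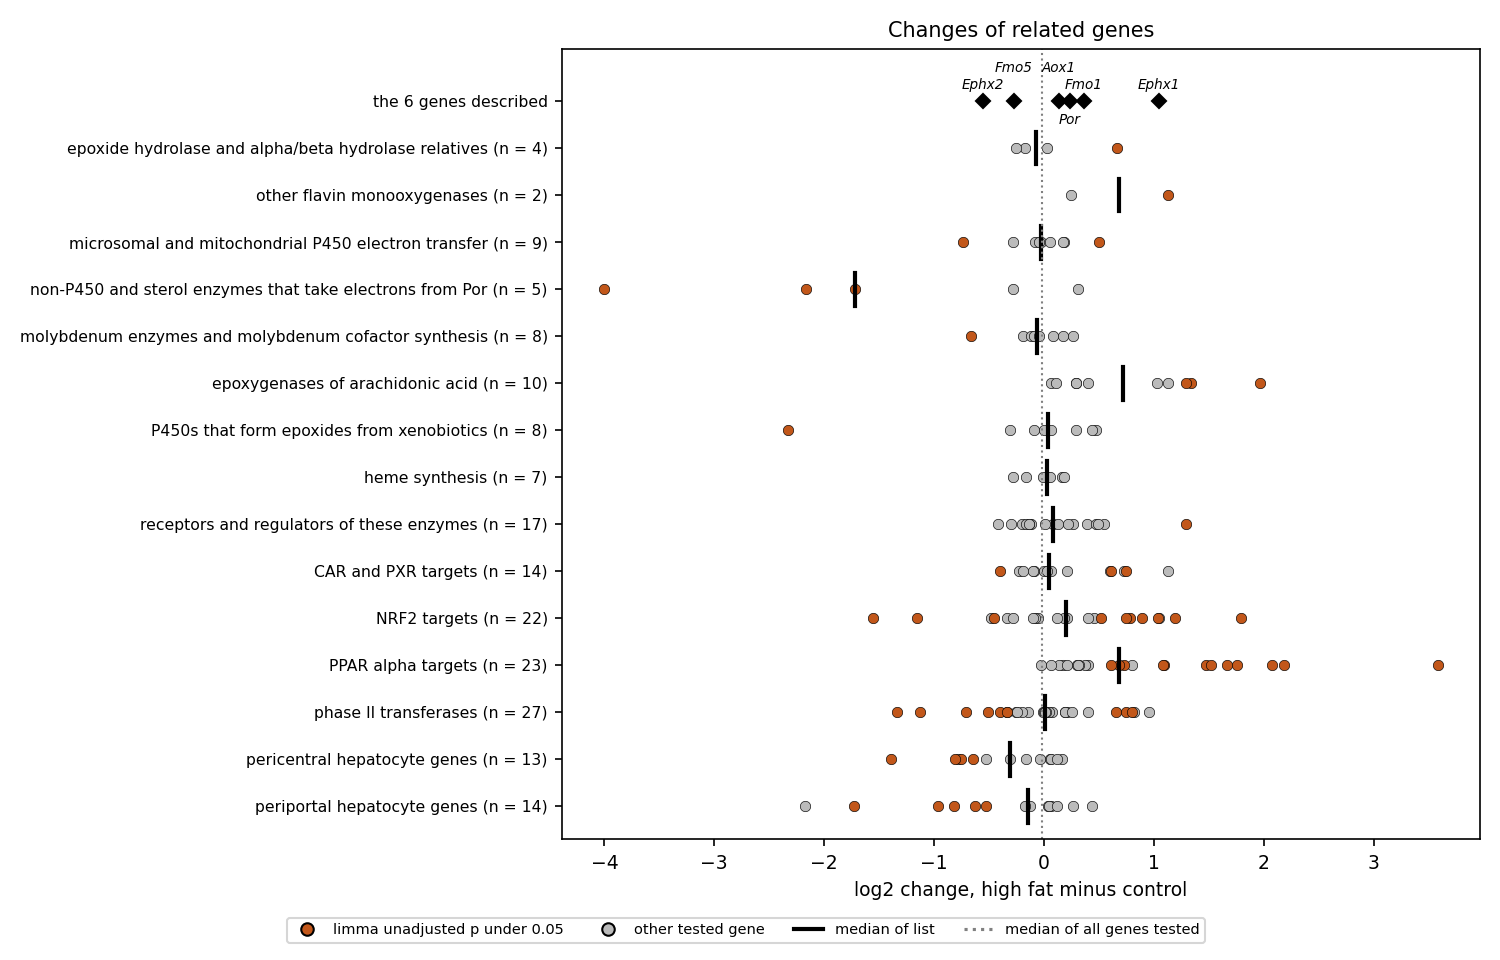
Log2 change, high fat minus control (x axis), of the 6 genes (diamonds, top) and of each tested gene of 15 related lists (circles); orange circles have a limma unadjusted p under 0.05, black bars are list medians and the dotted line is the median of all genes, -0.021. The epoxygenases (median 0.71) and PPAR alpha targets (0.68) lie to the right. The 5 sterol enzymes and heme oxygenases that take electrons from Por have a median of -1.72, with Hmox1 at -0.28 and Hmox2 at 0.31. P450s that form epoxides from foreign compounds have a median of 0.033, and Por lies at 0.23.

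Markers of further cell types were read in the same arrays. The median change was -0.73 for sinusoidal endothelium (13 genes, Lyve1 at -0.57, Ehd3 at -0.80 and Fcgr2b at -0.99), -0.080 for Kupffer cells (10), 0.050 for stellate cells (11) and 0.22 for cholangiocytes (4). It was -0.12 for lymphocytes (6), -0.33 for erythroid cells (7), 0.42 for adipocytes (5) and 1.64 for exocrine pancreas (7). Without high fat replicate 1 the pancreas median was 0.0040. Leaving out high fat replicate 3 gave a Kupffer median of -0.29 and a stellate median of 0.0058. Leaving out high fat replicate 2 turned the Kupffer median to 0.10. The cholangiocyte median was 0.096 without control replicate 1 and -0.37 with the lowest 60% of probe sets left out. The erythroid median ranged from -0.71 without control replicate 3 to -0.087 without control replicate 1, and the adipocyte median was 0.043 without control replicate 2. The lymphocyte median was -0.056 without high fat replicate 3 and 0.22 with the lowest 60% left out.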

How the data were processed

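Liver RNA of 6 pups was labelled with a 3' IVT kit and hybridised to Affymetrix rat arrays, as the labels' protocols state. The authors deposited log2 signals per probe set, a scale found from the values: with base 2 undone, the 2% trimmed mean was 500.2 on each array. The deposited table sets 91 to 144 probe sets per array to 0. How probes were summarized was not stated in the labels read here. Because array quartiles lay up to 0.22 apart, above a limit of 0.1, quantile normalization was applied. After leaving out 57 control probe sets, 20826 of 31042 had 1 gene symbol, 436 several and 9780 none; 20758 matched a current gene ID. Probe sets with a mean signal under 5.83, the dimmest 40%, were not tested. The comparison used lmFit and eBayes of limma 3.58.1 under R 4.3.3, 2-sided with Benjamini-Hochberg adjustment over 10372 genes and tested on simulated data, with exact permutation tests for single values. Figures used matplotlib 3.10.9. Litters are not labelled, and p-values therefore reflect only the spread among these animals; the number of arrays limits the precision.

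The members and lists were chosen with earlier results of these data known. Named genes were the 6 members, the 3 genes of each list with the smallest p and the 3 nearest profiles per member; others are marked. Alternatives covered normalization, brightness filter, probe set choice, variance model, array weights, replicate block, RNA integrity (3' minus 5' difference of actin and GAPDH control probe sets) and each array left out. Promoters came from RefSeq (GRCr8), which gave 5 of the 6 genes.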

Additional observations from a re-analysis of the deposited data

How the results depend on the processing

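None of the 6 genes passed limma's adjusted threshold under any of 15 alternatives, where adjusted p ranged from 0.138 to 0.967. Of 90 values, 87 kept their direction. With 1 array left out, Ephx2 ranged from -1.05 to 0.24, Por from -0.031 to 0.46 and Aox1 from -0.033 to 0.32, on the gene and on the probe set scale alike; Ephx1 (0.78 to 1.33), Fmo1 (0.20 to 0.48) and Fmo5 (-0.39 to -0.13) kept their direction. The count of genes past the threshold, 4, ranged from 0 to 4 with 1 array left out. Leaving out control replicate 1 or control replicate 3 gave 0 (1309 and 1148 genes at an unadjusted p under 0.05 in limma). It was 6 with the lowest 60% of probe sets left out, 5 with an intensity trend and robust prior, 1 without the brightness filter, and 0 with the covariate for RNA integrity (1095 at an unadjusted p under 0.05). Deviations from the group mean had correlations across genes of -0.13, -0.13 and -0.14 for same-numbered arrays, and of 0.043 to 0.082 for the others. Such deviations cancel out within each group of 3, so these correlations cannot show whether the numbers pair the pups. With the replicate block the count was 0 (1103 at an unadjusted p under 0.05) and Ephx1 was at 1.04 (SE 0.25, adjusted p = 0.364). The looser count of 696 genes ranged from 486 to 932. Among 72 other named genes, 6 of 1062 values changed sign: Hnf4a was at 0.19 with the mean of all probe sets, and with 1 array left out Fmo2 ranged from -0.14 to 0.46, Mest from -0.76 to 0.11, Gzma from -0.23 to 0.072 and Uty from -0.26 to 0.22. With values as deposited, all 3 nearest genes remained for Ephx1 and Ephx2, 2 for Por and 1 each for Fmo1, Fmo5 and Aox1. The causes were not tested. No detection calls were used here, so dim signals such as Inafm1 in high fat replicate 3 have no measured lower bound.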
